A study of Mus musculus with 656 samples.

Results

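Genes that encode sensors of microbial products or of cell damage, Tlr2, Cd14, Nlrp3, Clec4e and Nod1, were followed in mouse 3T3 fibroblasts, a line derived from mouse embryos. They were taken by name, as the rows whose Ensembl identifiers map to these symbols, and make up 5 of the 22070 genes in the count table. The cells had been pretreated for 1 hour with SC-514, a small-molecule inhibitor of IKKβ, the kinase that releases NF-κB from its cytoplasmic inhibitors, and were then stimulated. The stimulated groups were cells labelled IL-1β (1 ng/ml) or TNF-α (10 ng/ml), each at 15, 30, 60, 120 and 360 min after SC-514 at 0, 25, 50 or 100 µM. Unstimulated cells had 0 µM SC-514. The series gives 4 libraries for each of these 41 groups. No group received SC-514 without a stimulus, and the vehicle of the 0 µM cells is not given in the sources used here.

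Library depth ran from 928906 to 2469454 counts (median 1282459), except in 2 libraries, number 1 of IL-1β with 50 µM at 30 min with 12191 counts and number 1 of TNF-α with 50 µM at 120 min with 3839 counts. Group means leave these libraries out. Whether the 4 libraries of a group are 4 cultures or repeats of 1 is not stated in the labels, and the p-values therefore reflect only the spread between these libraries, which may be technical. The set prefix in the sample titles and that in the table's column names disagree for the stimulated samples, and the stimulus label together with the column name in the description was followed. Stimulus and library set cannot be told apart, so every comparison of IL-1β with TNF-α is one of labelled groups. The column names of the unstimulated libraries carry a prefix of their own. Every comparison with unstimulated cells therefore crosses library sets as well, and a set effect cannot be told apart there either. A level below is in CPM, a gene's counts scaled to a library of 1000000 counts, with TMM factors. A gene was called changed at an adjusted p under 0.05 in edgeR's quasi-likelihood test, with Benjamini-Hochberg adjustment over the 10766 genes tested in that comparison. The libraries hold tags from the poly-A end of transcripts, and levels of different genes are not compared.

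Pattern recognition receptors detect conserved parts of microbes or products of damaged cells and start inflammatory signalling. TLR2 sits at the cell surface and binds bacterial lipoproteins together with TLR1 or TLR6, and CD14 is the membrane-anchored co-receptor that hands lipopolysaccharide to TLR4 and lipoproteins to TLR2. Clec4e encodes Mincle, a C-type lectin that binds the mycobacterial cord factor and signals through the Fc receptor gamma chain, SYK and CARD9. In the cytoplasm, NOD1 senses a peptidoglycan fragment and signals through RIPK2, and NLRP3 assembles the inflammasome that activates caspase-1. TLR2, NLRP3 and Mincle are best known from macrophages, in which NF-κB drives transcription of Tlr2 and Nlrp3 after stimulation, whereas NOD1 is made in many cell types.

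Promoter windows from RefSeq (GRCm38.p6), running from 250 bases before to 50 bases after an annotated start, are shown for Tlr2, Nlrp3, Clec4e and Nod1, since the stimuli and the inhibitor act on NF-κB. The Cd14 promoter was not analysed here. The windows were searched on both strands for the NF-κB consensus, with capitals marking its matches, for the AP-1 motif TGANTCA and for TATAAA. The windows are chr3:83841559-83841858 on the minus strand for Tlr2, chr11:59541319-59541618 on the plus strand for the first start of Nlrp3, chr6:123289822-123290121 on the minus strand for Clec4e and chr6:54972563-54972862 on the minus strand for Nod1.
Tlr2: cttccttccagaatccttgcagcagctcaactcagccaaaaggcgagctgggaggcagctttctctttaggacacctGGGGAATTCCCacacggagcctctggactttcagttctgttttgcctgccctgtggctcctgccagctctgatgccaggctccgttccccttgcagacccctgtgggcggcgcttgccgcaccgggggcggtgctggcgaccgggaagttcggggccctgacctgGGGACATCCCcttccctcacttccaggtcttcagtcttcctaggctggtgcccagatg
Nlrp3: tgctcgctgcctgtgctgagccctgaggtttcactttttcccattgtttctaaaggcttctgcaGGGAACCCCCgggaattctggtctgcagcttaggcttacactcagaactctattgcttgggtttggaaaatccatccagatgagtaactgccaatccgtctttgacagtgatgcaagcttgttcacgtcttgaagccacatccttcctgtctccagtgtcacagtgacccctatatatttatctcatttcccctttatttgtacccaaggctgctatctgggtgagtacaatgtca
Clec4e: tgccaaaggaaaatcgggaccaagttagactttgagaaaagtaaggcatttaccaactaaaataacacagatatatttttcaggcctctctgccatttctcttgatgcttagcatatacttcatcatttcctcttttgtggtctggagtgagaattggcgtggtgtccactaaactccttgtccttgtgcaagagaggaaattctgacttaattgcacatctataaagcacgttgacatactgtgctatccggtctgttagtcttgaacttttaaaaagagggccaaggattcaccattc
Nod1: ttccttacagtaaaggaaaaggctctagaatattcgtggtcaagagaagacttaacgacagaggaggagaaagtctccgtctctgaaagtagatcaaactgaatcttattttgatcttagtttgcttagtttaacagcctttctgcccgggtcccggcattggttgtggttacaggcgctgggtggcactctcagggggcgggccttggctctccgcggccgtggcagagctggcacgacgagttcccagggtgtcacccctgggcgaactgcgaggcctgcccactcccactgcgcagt
The Tlr2 window held NF-κB matches at 3 positions, the first base at -173, -172 and -8 from the start, of which the first and the next overlap. The Nlrp3 window held 1, at -186, and the windows of Clec4e and Nod1 held none. A TATAAA lies at -29 in the Clec4e window, and no AP-1 match was found in any of these windows. Among 32851 mouse promoter windows of the same length, 8.46% held the NF-κB consensus, 7.81% TGANTCA and 13.6% TATAAA. A second listed start of Nlrp3 and one of Nod1 had windows with no match to any of these motifs.

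The label of fibroblasts was set against the markers examined. All 10 fibroblast markers were present, among them Col1a2 at a mean of 2210 CPM and Sparc at 2130 CPM, and their sum lay between 7110 and 10400 CPM in every group. Of 16 myeloid markers, 14 were in the table and 7 of these averaged under 1 CPM. Tyrobp and Cd52 averaged 0.00942 CPM each, Adgre1 0.0141 CPM, Fcgr3 0.0236 CPM, Spi1 0.0895 CPM, Ptprc 0.626 CPM and Itgam 0.721 CPM. Cd74 stood at 21.0 CPM, S100a8 at 7.24 CPM, Lyz2 at 6.43 CPM, Mpeg1 at 6.42 CPM, Cybb at 4.80 CPM, Cd68 at 4.41 CPM and Csf1r at 3.02 CPM. None of the 14 was at 0 over all libraries.

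Without inhibitor, Tlr2, Nlrp3 and Clec4e rose under both stimuli, Cd14 rose late under IL-1β, and Nod1 was not called at any time. Of 25 tests of a gene at a time, 8 were called higher under IL-1β and 6 under TNF-α, and none was called lower. Among all genes tested, the share called higher under IL-1β was 0.121% at 15 min, 0.725% at 30 min, 2.74% at 60 min, 8.17% at 120 min and 12.3% at 360 min. Under TNF-α the shares were 0.0836%, 0.557%, 4.15%, 9.14% and 3.62% at the same times. Nlrp3 and Clec4e passed the filter on low counts only through the groups in which they had counts, so part of their share of calls follows from that filter. The same holds for their calls in the comparisons below.

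Tlr2 (ENSMUSG00000027995.10, chromosome 3, 83836272 to 83841767, minus strand) peaked at 120 min. The 4 IL-1β libraries of that time read 115, 99.7, 113 and 94.8 CPM and the 4 TNF-α libraries 110.2, 115, 122 and 95.7 CPM, against 17.3, 17.3, 13.5 and 24.2 CPM in unstimulated cells. All stimulated libraries lay above all unstimulated ones. The log2 change was 2.54 ± 0.22 (SE, adjusted p = 2.3e-19) under IL-1β and 2.61 ± 0.22 (adjusted p = 6.1e-20) under TNF-α. The rise was first called at 60 min, with a log2 change of 1.50 ± 0.24 under IL-1β and 1.79 ± 0.24 under TNF-α. At 360 min the IL-1β libraries held 58.9, 39.6, 41.8 and 54.3 CPM, still clear of the unstimulated range, with a log2 change of 1.42 ± 0.25 (adjusted p = 2.1e-06). The TNF-α libraries of that time held 23.4, 18.1, 27.2 and 26.7 CPM and overlapped the unstimulated ones (log2 change 0.40 ± 0.29, adjusted p = 0.51).

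Nlrp3 (ENSMUSG00000032691.14, chromosome 11, 59541568 to 59566956, plus strand) had no count in any unstimulated library. At 120 min the IL-1β libraries held 22, 23, 6 and 9 counts and the TNF-α libraries 30, 16, 17 and 19 counts. With the unstimulated group put at 3 counts in all, the level was at least 17.4-fold higher under IL-1β (adjusted p = 1.3e-09) and at least 29.7-fold higher under TNF-α (adjusted p = 1.3e-13). Here and below, an "at least" fold allows for the group at 0 only and takes the counts of the other group as exact. It has no interval and is not a confidence limit. TNF-α cells were already higher at 60 min, with 9, 10, 2 and 8 counts and a level at least 10.8-fold that of unstimulated cells (adjusted p = 3.5e-06). The IL-1β cells of 60 min held 3, 2, 3 and 1 counts, which missed the threshold (adjusted p = 0.079). At 360 min IL-1β cells held 4, 6, 5 and 6 counts, at least 7.23-fold higher (adjusted p = 5.6e-05), and TNF-α cells 1, 1, 1 and 0 counts. At 15 and 30 min a single count was found, in 1 IL-1β library of 15 min.

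Clec4e (ENSMUSG00000030142.10, chromosome 6, 123281789 to 123289870, minus strand) had 1 count in the unstimulated libraries together. Under IL-1β it had 5, 5, 6 and 8 counts at 120 min and 36, 26, 21 and 27 counts at 360 min. The 120 min level, from summed counts per effective library size, was 20.9 times that of unstimulated cells (95% interval 3.41 to 859; edgeR's adjusted p = 0.0002). The 360 min level was 114 times as high (20 to 4530; adjusted p = 3e-17). These intervals cover counting error only and are wide because the unstimulated group holds a single count. Under TNF-α the libraries of 60 min had 6, 4, 3 and 4 counts, those of 120 min 19, 10, 8 and 4 counts, and those of 360 min 1, 2, 3 and 3 counts. The ratio was 19.0 (2.98 to 795) at 60 min (adjusted p = 0.0017) and 44.6 (7.57 to 1800) at 120 min (adjusted p = 1.4e-08), and the 360 min level missed the threshold (ratio 10.4, adjusted p = 0.069). Clec4e thus had its highest TNF-α level at 120 min and its highest IL-1β level at 360 min. Without the libraries numbered 1, the TNF-α change at 60 min had an adjusted p of 0.057.

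Cd14 (ENSMUSG00000051439.6, chromosome 18, 36725067 to 36726798, minus strand) was present in every group and rose little. At 360 min the IL-1β libraries held 29.0, 37.9, 26.8 and 28.4 CPM and the TNF-α libraries 28.2, 28.2, 35.0 and 26.7 CPM, against 20.9, 17.3, 20.2 and 16.9 CPM in unstimulated cells. Neither stimulated group overlapped the unstimulated one. The IL-1β change passed the test (log2 change 0.69 ± 0.22, adjusted p = 0.012) and the TNF-α change did not (0.64 ± 0.22, adjusted p = 0.07). Nod1 (ENSMUSG00000038058.14, chromosome 6, 54923949 to 54972612, minus strand) averaged 19.5 ± 4.62 CPM (SD, n = 4) in unstimulated cells, and its means without inhibitor lay between 17.9 and 26.2 CPM under IL-1β and between 15.7 and 25.4 CPM under TNF-α. None of its 10 tests against unstimulated cells was called. The Cd14 call under IL-1β was lost without the libraries numbered 2 (log2 change 0.54, adjusted p = 0.15).

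**Figure D1:**
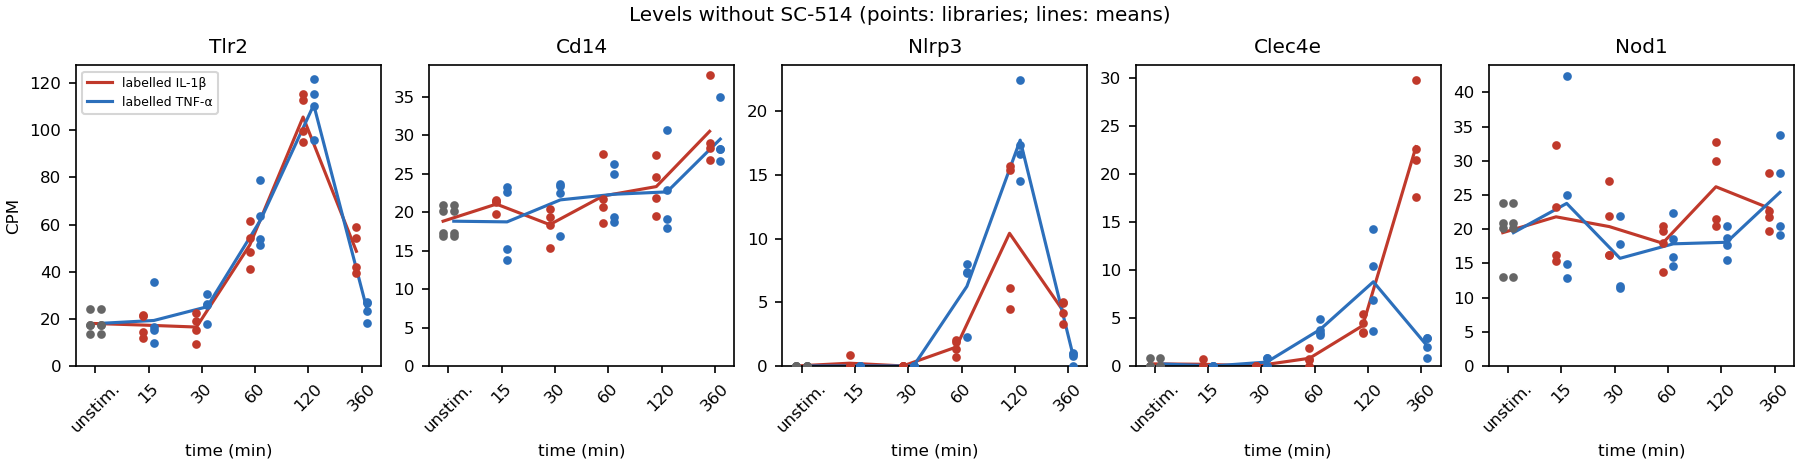
Levels of the 5 genes in CPM (vertical axes) without SC-514, by time in minutes, with unstimulated cells at the left, in cells labelled IL-1β (red) and TNF-α (blue). Points are libraries, with the same 4 unstimulated ones (grey) drawn for each stimulus, and lines are group means. Tlr2 peaks at 120 min under both stimuli, Clec4e reaches a mean of 22.9 CPM at 360 min under IL-1β, and Nod1 shows no called change.

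Beside these rises, the summed level of the 14 myeloid markers was 131 CPM in IL-1β cells and 89.7 CPM in TNF-α cells at 360 min, against 54.2 CPM in unstimulated cells. Of the 6 markers tested, S100a8 and Cybb were called higher at 360 min under IL-1β (log2 changes of 3.07 and 3.99), and S100a8 alone under TNF-α (2.53). Of all genes, 12.3% were called higher at that time under IL-1β and 3.62% under TNF-α. The sum does not show which of the other markers moved, and it is not a rise of the whole set. Over all libraries Tyrobp, Adgre1, Fcgr3 and Spi1 were near 0, while Cd68 and Csf1r had counts in 161 and 160 libraries. The part of myeloid cells in the rise of Clec4e, Cd14 or Tlr2 was not tested. In bulk RNA, a change in the number of cells that express a gene and in its RNA per cell cannot be told apart. The mitochondrial share of counts had a median of 0.579% in IL-1β cells and 0.638% in TNF-α cells at 0 µM, against 0.665% in unstimulated cells.

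The labelled stimuli parted mainly at 360 min. Of 25 comparisons of IL-1β with TNF-α at 0 µM, 4 were called, 3 higher and 1 lower in IL-1β cells, beside 0.0372% of all genes called at 15 min, 0.186% at 30 min, 1.26% at 60 min, 1.02% at 120 min and 9.46% at 360 min. At 360 min Tlr2 was higher in IL-1β cells by 1.02 ± 0.24 on the log2 scale (adjusted p = 0.0014). Clec4e held 110 counts over the IL-1β libraries and 9 over the TNF-α libraries of that time, a ratio of 11.0 (95% counting interval 5.56 to 24.6, adjusted p = 5.8e-11). Nlrp3 held 21 counts over IL-1β and 3 over TNF-α libraries at 360 min, a ratio of 6.27 (1.87 to 32.8, adjusted p = 0.023). At 60 min the order was the other way, with 9 Nlrp3 counts under IL-1β and 29 under TNF-α, a ratio of 0.228 (0.095 to 0.495, adjusted p = 0.038). In an F test over the 5 times, the stimuli differed for Clec4e (adjusted p = 5e-11), Nlrp3 (0.0013) and Tlr2 (0.0066), and missed the threshold for Cd14 (0.96) and Nod1 (0.59). The F test called 9.56% of all genes. Nlrp3 and Clec4e passed the filter on low counts only through groups in which they had counts, so part of their calls here follows from that filter. The Nlrp3 calls rest on few counts: the adjusted p at 360 min lay between 0.057 and 0.15 when any 1 library number was left out, and at 60 min between 0.13 and 0.32 without number 1, 2 or 4.

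Between 120 and 360 min without inhibitor, Tlr2 and Nlrp3 fell under both stimuli, while Clec4e rose under IL-1β and fell under TNF-α. Tlr2 fell by 1.12 ± 0.18 on the log2 scale under IL-1β (adjusted p = 1.2e-06) and by 2.21 ± 0.22 under TNF-α (adjusted p = 6.9e-16). The Nlrp3 ratio of 360 to 120 min was 0.416 (0.24 to 0.693, adjusted p = 0.043) under IL-1β and 0.0388 (0.00783 to 0.117, adjusted p = 3.8e-10) under TNF-α. The Clec4e ratio was 5.44 (3.47 to 8.85, adjusted p = 7.8e-09) under IL-1β and 0.233 (0.0994 to 0.486, adjusted p = 0.0013) under TNF-α. Over both stimuli 6 of 10 tests were called, beside 9.39% of all genes under IL-1β and 11.8% under TNF-α. Nlrp3 and Clec4e passed the filter on low counts through groups such as these, so the count cannot be set fairly against those shares. Cd14 and Nod1 were not called. The Nlrp3 fall under IL-1β was lost without the libraries numbered 1 (adjusted p = 0.32) or 2 (0.31), and the Clec4e fall under TNF-α without those numbered 1 (0.16).

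SC-514 at 100 µM lowered Cd14 at every time under both stimuli and lowered Nod1 in 9 of 10 comparisons. Tlr2 was called lower at 60 min under both stimuli and at 120 min under IL-1β. At 360 min under IL-1β Tlr2 was also above unstimulated cells, and no fall was called. Nlrp3 and Clec4e were called lower only from 60 min on. At 15 and 30 min they held too few counts at 0 µM for a fall to be seen. Of 25 tests, 16 were called lower under IL-1β and 16 under TNF-α, and none was called higher. The share of all genes called lower at 100 µM was 13.5%, 12.5%, 14.4%, 16.2% and 15.7% at 15, 30, 60, 120 and 360 min under IL-1β. Under TNF-α it was 13.2%, 10.8%, 13.6%, 15% and 15.4%. Part of the Nlrp3 and Clec4e calls follows from the filter on low counts, as above. In F tests over the 5 times, all 5 genes were called in both stimuli, among 55.3% of all genes called under IL-1β and 50.3% under TNF-α, so passing this test does not set the genes apart. When libraries were scaled by relative log expression (RLE) over all libraries in place of TMM, higher calls made up 50.4% to 63.6% of all calls at a time under IL-1β and 50.2% to 68.7% under TNF-α, against 44.4% to 46.9% and 37.9% to 43.3% with TMM. With the 2 shallow libraries left out, RLE gave 44.8% to 47.1% and 39.5% to 41.6%.

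Cd14 was already lower at 15 min. The IL-1β libraries with 100 µM then held 7.87, 6.86, 8.96 and 8.42 CPM, against 19.8, 21.5, 21.4 and 21.5 CPM at 0 µM, and the groups did not overlap. This is 38.4% of the 0 µM level (95% interval 26.6 to 55.5%, adjusted p = 1.7e-05). Under TNF-α the libraries held 8.89, 11.5, 11.4 and 9.64 CPM at 100 µM, against 23.3, 22.7, 15.2 and 13.9 CPM at 0 µM, or 54.9% (38.7 to 77.9%, adjusted p = 0.0068). That TNF-α call was lost without the libraries numbered 1 (log2 change -0.66, adjusted p = 0.11). The percentages were lowest at 360 min, at 19.7% under IL-1β and 28.7% under TNF-α. With 100 µM Cd14 held 6.96, 9.65, 5.05 and 1.89 CPM under IL-1β, against 29.0, 37.9, 26.8 and 28.4 CPM at 0 µM, a log2 change of -2.34 ± 0.28 (adjusted p = 2.1e-12). Under TNF-α the change at 360 min was -1.80 ± 0.23 (adjusted p = 7.8e-11). The difference between these times in size was not tested.

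Nod1, which was not called under either stimulus alone, was also lower from 15 min on. At that time the IL-1β libraries held 6.44, 6.10, 8.96 and 4.21 CPM at 100 µM, against 16.3, 23.3, 15.4 and 32.3 CPM at 0 µM, without overlap (29.6% of the 0 µM level, 18.7 to 46.8%, adjusted p = 1.2e-05). The TNF-α libraries held 6.52, 9.22, 4.43 and 8.43 CPM at 100 µM, against 12.9, 14.8, 25.0 and 42.4 CPM at 0 µM, again without overlap (30.2%, 19.7 to 46.5%, adjusted p = 4.8e-06). The level stayed at 28.9% to 49.9% of 0 µM between 30 and 120 min under IL-1β and at 37.7% to 52.2% under TNF-α. At 360 min Nod1 held 18.3, 13.2, 27.8 and 26.5 CPM under IL-1β with 100 µM, against 28.2, 19.8, 22.6 and 21.7 CPM at 0 µM, overlapping groups with a log2 change of -0.11 ± 0.27 (adjusted p = 0.8). Under TNF-α it held 9.67, 7.31, 21.3 and 8.49 CPM with 100 µM, against 33.8, 28.2, 20.4 and 19.1 CPM at 0 µM, a log2 change of -1.14 ± 0.27 (adjusted p = 0.00052), and 1 treated library lay inside the 0 µM range. The difference of these effects was 1.03 ± 0.38 on the log2 scale, with an unadjusted p of 0.0084 and an adjusted p of 0.15, so it was not called. The calls at 60 min under IL-1β and 30 min under TNF-α were each lost without 2 of the library numbers, with adjusted p of 0.06 to 0.063 and of 0.11 to 0.39.

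Tlr2 was lowered by 100 µM at 60 min under both stimuli. Its libraries held 28.2, 25.4, 24.3 and 28.0 CPM under IL-1β with 100 µM, against 61.3, 54.4, 48.3 and 41.3 CPM at 0 µM (log2 change -0.95 ± 0.22, adjusted p = 0.00044). Under TNF-α they held 24.4, 37.5, 33.2 and 27.6 CPM with 100 µM, against 63.5, 79.0, 51.2 and 53.7 CPM at 0 µM (-1.05 ± 0.21, adjusted p = 3.6e-05). The groups overlapped in neither case. At 120 min the level was 62.3% of that at 0 µM under IL-1β (48.6 to 79.8%, adjusted p = 0.0017) and 76.8% under TNF-α (61.4 to 96%, adjusted p = 0.071). The TNF-α libraries with 100 µM, at 81.6, 83.9, 82.6 and 92.1 CPM, all lay below the 0 µM libraries, at 110.2, 115, 122 and 95.7 CPM, although the test was not passed. No change of Tlr2 was called at 15, 30 or 360 min. Under other settings the TNF-α change at 30 min passed the test, without the filter on low counts (adjusted p = 0.023), without number 1 (0.016) or with that stimulus fitted alone (0.023). The TNF-α change at 120 min did so without the filter (0.031) or with that stimulus fitted alone (0.019). The IL-1β call at 120 min was lost without the libraries numbered 3 (log2 change -0.53, adjusted p = 0.072).

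Nlrp3 fell at 60 and 120 min under both stimuli and at 360 min under IL-1β. At 120 min IL-1β cells held 0, 1, 0 and 4 counts with 100 µM, against 22, 23, 6 and 9 counts at 0 µM, a level 8.13-fold lower (95% counting interval 3.29 to 25.9, adjusted p = 2.3e-05). TNF-α cells held 2, 8, 10 and 4 counts with 100 µM, against 30, 16, 17 and 19 counts at 0 µM, 5.59-fold lower (3.51 to 9.17, adjusted p = 6.6e-08). In neither case did the CPM of the groups overlap. At 60 min the IL-1β sums were 0 counts with 100 µM and 9 at 0 µM, at least 2.44-fold lower (adjusted p = 0.019), and the TNF-α sums 2 and 29 counts, 20.9-fold lower (5.29 to 181, adjusted p = 7.1e-06). At 360 min IL-1β cells had 2 counts with 100 µM and 21 at 0 µM, 9.90-fold lower (2.42 to 87.0, adjusted p = 0.0026). The IL-1β call at 60 min had adjusted p of 0.065 to 0.094 without number 1, 2 or 3.

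Clec4e at 360 min under IL-1β held 1, 0, 2 and 0 counts with 100 µM, against 36, 26, 21 and 27 counts at 0 µM, a level 34.6-fold lower (11.5 to 170, adjusted p = 5.9e-15). At 120 min under TNF-α it held 0, 0, 2 and 1 counts with 100 µM, against 19, 10, 8 and 4 counts at 0 µM, 22.4-fold lower (7.14 to 113, adjusted p = 1.2e-09). Treated and untreated groups were apart in both cases. It was also lower under IL-1β at 120 min (5.41-fold, 1.64 to 28.1, adjusted p = 0.0073), and under TNF-α at 60 min (at least 8.16-fold, adjusted p = 7.8e-06) and 360 min (5.65-fold, 1.41 to 32.4, adjusted p = 0.026). The TNF-α call at 360 min was lost whichever library number was left out (adjusted p 0.057 to 0.11), and the IL-1β call at 120 min without number 4 (0.1). Where both groups held 3 counts or fewer, as at 15 and 30 min, no fold is given. Beside these falls, the summed myeloid markers at 360 min stood at 67.4 CPM under IL-1β with 100 µM, against 131 CPM at 0 µM, and at 45.5 CPM under TNF-α with 100 µM, against 89.7 CPM at 0 µM. The IL-1β libraries ranged from 45.6 to 100 CPM with 100 µM and from 123 to 146 CPM at 0 µM. The TNF-α libraries ranged from 33.5 to 55.8 CPM and from 69.7 to 108 CPM. S100a8 and Cybb were the 2 called lower of the 6 tested, in both stimuli, beside 15.7% of all genes under IL-1β and 15.4% under TNF-α. The part of these markers' cells in the falls was not tested.

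**Figure D2:**
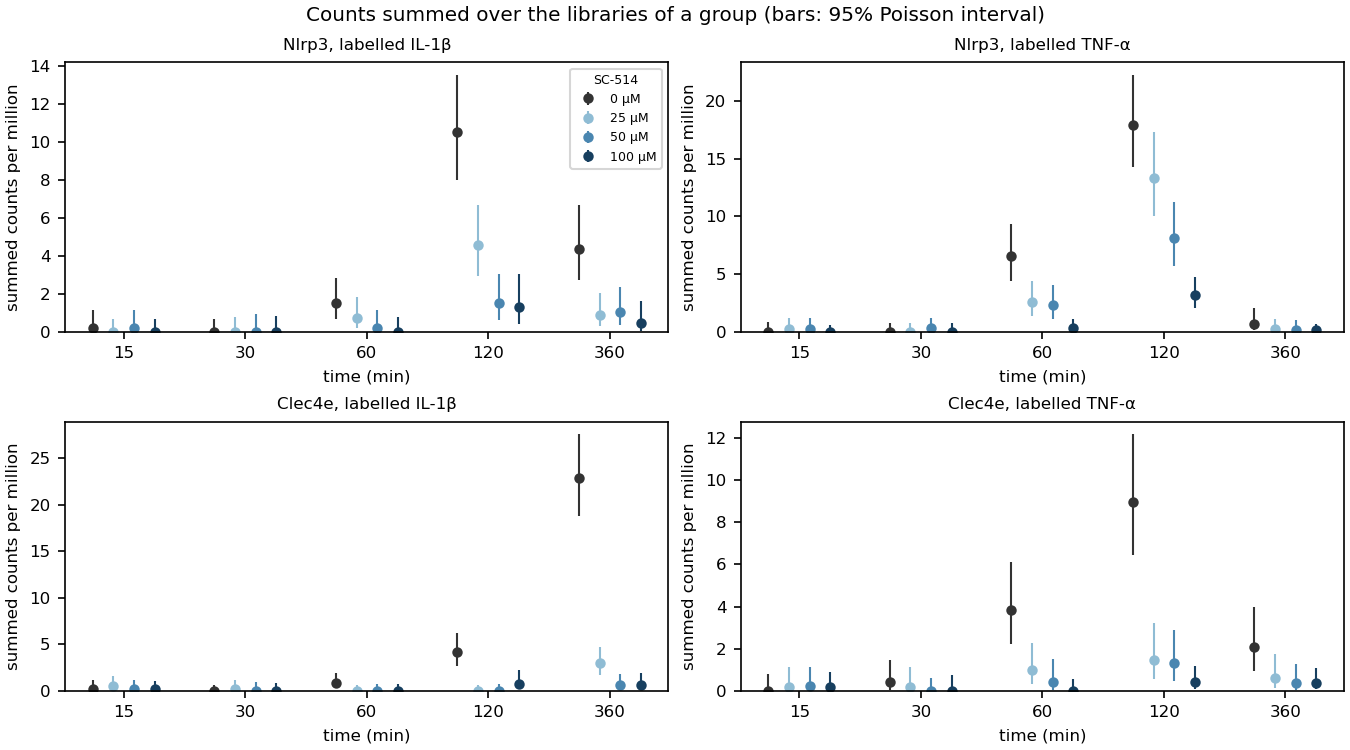
Nlrp3 (upper row) and Clec4e (lower row), as the summed counts of a group's libraries in CPM, by time in minutes and SC-514 concentration, in cells labelled IL-1β (left) and TNF-α (right). Bars are 95% Poisson intervals, which cover counting error only. The highest Clec4e value at 0 µM, under IL-1β at 360 min, rests on 110 counts, against 3 counts with 100 µM.

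At 25 µM SC-514, Cd14, Nod1, Clec4e and Nlrp3 were called lower at some of the times, under 1 or both stimuli, and Tlr2 at none. With 50 µM Cd14 was called lower at all 5 times under both stimuli, and Nod1 at 4 under IL-1β and 5 under TNF-α. Clec4e and Nlrp3 were each called lower at 2 times under each stimulus, and Tlr2 at none. Leaving out 1 library number gave 19 to 23 calls with 50 µM over both stimuli, against 27 with all libraries. With 25 µM, 11 of 25 tests were called lower under IL-1β and 8 under TNF-α. With 50 µM 13 and 14 were called lower, and none was called higher at either concentration. Among all genes, the share called lower with 25 µM was 5.29%, 2.75%, 6.36%, 7.19% and 3.9% at 15, 30, 60, 120 and 360 min under IL-1β, and 4.09%, 4.63%, 5.58%, 4.79% and 2.26% under TNF-α. With 50 µM the shares in the same order of times were 7.96%, 8.29%, 9.88%, 11.6% and 8.67% under IL-1β, and 8.51%, 8.64%, 10.5%, 8.18% and 7.07% under TNF-α. With RLE over all libraries, higher calls made up 42.9% to 56.9% of calls with 25 µM under IL-1β and 34.8% to 53.7% under TNF-α, against 32.3% to 52.3% and 17.3% to 48.1% with TMM. With 50 µM they made up 43.4% to 54.4% and 46.7% to 56.5% with RLE, against 39.9% to 46.1% and 25.6% to 42.9% with TMM. Of the 19 tests called by edgeR at 25 µM over both stimuli, 10 were called by DESeq2 too, 5 were not, and 4 had no adjusted p in DESeq2. Leaving out 1 library number gave 10 to 17 calls in edgeR.

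Nod1 was called lower with 25 µM at 15, 30 and 120 min under IL-1β and at 15 to 120 min under TNF-α. Without library number 1, 2 or 3 the calls at 30 min were lost, with adjusted p of 0.073 to 0.13 under IL-1β and 0.063 to 0.27 under TNF-α. The TNF-α call at 60 min was lost without number 2, 3 or 4 (0.10 to 0.15) and by DESeq2 (0.057). At 15 min under IL-1β its mean was 21.8 ± 7.83 CPM at 0 µM, 7.68 ± 1.44 CPM at 25 µM, 10.1 ± 2.39 CPM at 50 µM and 6.43 ± 1.96 CPM at 100 µM (SD, n = 4 each). The 25 µM level was 35.4% of that at 0 µM (22.8 to 54.9%, adjusted p = 0.00026). Under TNF-α it was 36.6% (23.6 to 56.7%, adjusted p = 0.00059). Set directly against 25 µM, 100 µM gave log2 differences for Nod1 between -0.42 and 0.25 over the 10 comparisons, with SEs of 0.26 to 0.42, and none was called. At 60 min under IL-1β the level as a percent of that at 0 µM was 59.3% with 25 µM (adjusted p = 0.082), 46.9% with 50 µM and 49.9% with 100 µM. At 360 min under TNF-α it was 60.9% with 25 µM (adjusted p = 0.18), 36.4% with 50 µM and 45.5% with 100 µM. In both cases the levels with 50 and 100 µM were called lower than at 0 µM and that with 25 µM was not. At 60 min under IL-1β this split depended on the libraries kept. The 25 µM level was called without number 4 (adjusted p = 0.021). The 50 µM call was lost without number 3 (0.13), and the 100 µM call without number 2 (0.063) or 3 (0.060).

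The Cd14 means at 360 min were lower at each higher concentration. They were 30.5 ± 5.02, 14.3 ± 2.57, 8.72 ± 2.64 and 5.89 ± 3.27 CPM at 0, 25, 50 and 100 µM under IL-1β, and 29.5 ± 3.69, 15.3 ± 3.22, 11.8 ± 4.84 and 8.36 ± 1.99 CPM under TNF-α (SD, n = 4 each). The 100 µM level differed from that of 25 µM by -1.25 ± 0.31 on the log2 scale under IL-1β (adjusted p = 0.0019) and by -0.86 ± 0.26 under TNF-α (adjusted p = 0.013). The same was called at 60 and 120 min under IL-1β and at 120 min under TNF-α. These tests of 100 against 25 µM were added after the counts had been seen. Each of these Cd14 calls was lost when 1 or another library number was left out, with adjusted p of 0.053 to 0.19.

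Tlr2 was lower with 100 µM than with 25 µM at several times. At 15 min under IL-1β its libraries held 21.2, 12.1, 14.6 and 21.5 CPM at 0 µM, 28.5, 32.6, 28.6 and 28.5 CPM at 25 µM and 18.6, 19.0, 14.7 and 20.3 CPM at 100 µM. All 25 µM libraries lay above all 0 µM ones, a log2 change of 0.75 ± 0.27 that missed the threshold (adjusted p = 0.057). At 120 min under TNF-α the mean was 111 ± 11.1 CPM at 0 µM, 136 ± 11.3 CPM at 25 µM and 85.0 ± 4.79 CPM at 100 µM, and 25 against 0 µM was not called (adjusted p = 0.31). Set against 25 µM, 100 µM gave lower Tlr2 at 15, 30, 60 and 120 min under TNF-α, with log2 changes of -0.93, -0.98, -1.09 and -0.67. Under IL-1β it did so at 60 and 120 min, at -0.86 and -0.57. The TNF-α call at 15 min was lost without number 3 or 4 (adjusted p 0.23 and 0.17), and that at 30 min without number 2 or 3 (0.082 and 0.15). The IL-1β call at 60 min was lost without number 2, 3 or 4 (0.053 to 0.075). That at 120 min was lost without number 3 (0.23) or 4 (0.061), with that stimulus fitted alone (0.076) and by DESeq2 (0.10). Over the 5 genes the comparison of 100 with 25 µM called 6 of 25 tests lower under IL-1β and 8 under TNF-α, beside 5.29%, 5.71%, 5.21%, 8.06% and 9.34% of all genes called lower at 15, 30, 60, 120 and 360 min under IL-1β and 4.42%, 4.2%, 5.68%, 8.68% and 9.07% under TNF-α. With 1 library number left out, these counts were 1 to 5 and 3 to 6. At 360 min under IL-1β the Tlr2 levels of the libraries numbered 1 stood apart, at 119.7 CPM with 25 µM and 104 CPM with 50 µM, against 32.1 to 53.0 CPM in the other libraries of these groups, and Nod1 was also high in them, at 44.2 and 39.9 CPM. Without the libraries numbered 1 the Tlr2 change at 360 min was -0.05 ± 0.19 with 25 µM and that of Nod1 -0.28 ± 0.30, against 0.36 ± 0.20 and 0.07 ± 0.26 with them, and none was called.

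Clec4e was already lower with 25 µM under both stimuli. At 120 min under IL-1β it had 24 counts over the group at 0 µM, none at 25 or 50 µM and 3 at 100 µM, so the 25 µM level was at least 7.72-fold lower than at 0 µM (adjusted p = 1.1e-05). At 360 min the group sums were 110, 17, 3 and 3 counts at 0, 25, 50 and 100 µM, and 25 µM gave a level 7.69-fold lower than 0 µM (4.59 to 13.7, adjusted p = 5.9e-10). Under TNF-α at 120 min 6 counts at 25 µM stood against 41 at 0 µM, 6.06-fold lower (2.56 to 17.5, adjusted p = 0.0004). Nlrp3 under TNF-α at 120 min held 82 counts at 0 µM, 54 at 25 µM, 37 at 50 µM in 3 libraries and 24 at 100 µM. The 25 µM change was not called (1.35-fold lower, 0.943 to 1.94, adjusted p = 0.52), and that of 50 µM was (2.21-fold lower, 1.48 to 3.34, adjusted p = 0.023). Under IL-1β at 120 min Nlrp3 was called lower at 25 µM, with 25 counts against 60 at 0 µM (2.31-fold, 1.43 to 3.85, adjusted p = 0.033). Both of these Nlrp3 calls were lost under 5 other settings. The one with 50 µM had adjusted p of 0.081 to 0.13 without number 1, 3 or 4, 0.095 without the filter on low counts and 0.305 by DESeq2. The one with 25 µM had adjusted p of 0.093 to 0.26 without number 1, 2 or 3, 0.088 without the filter and 0.21 by DESeq2.

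**Figure D3:**
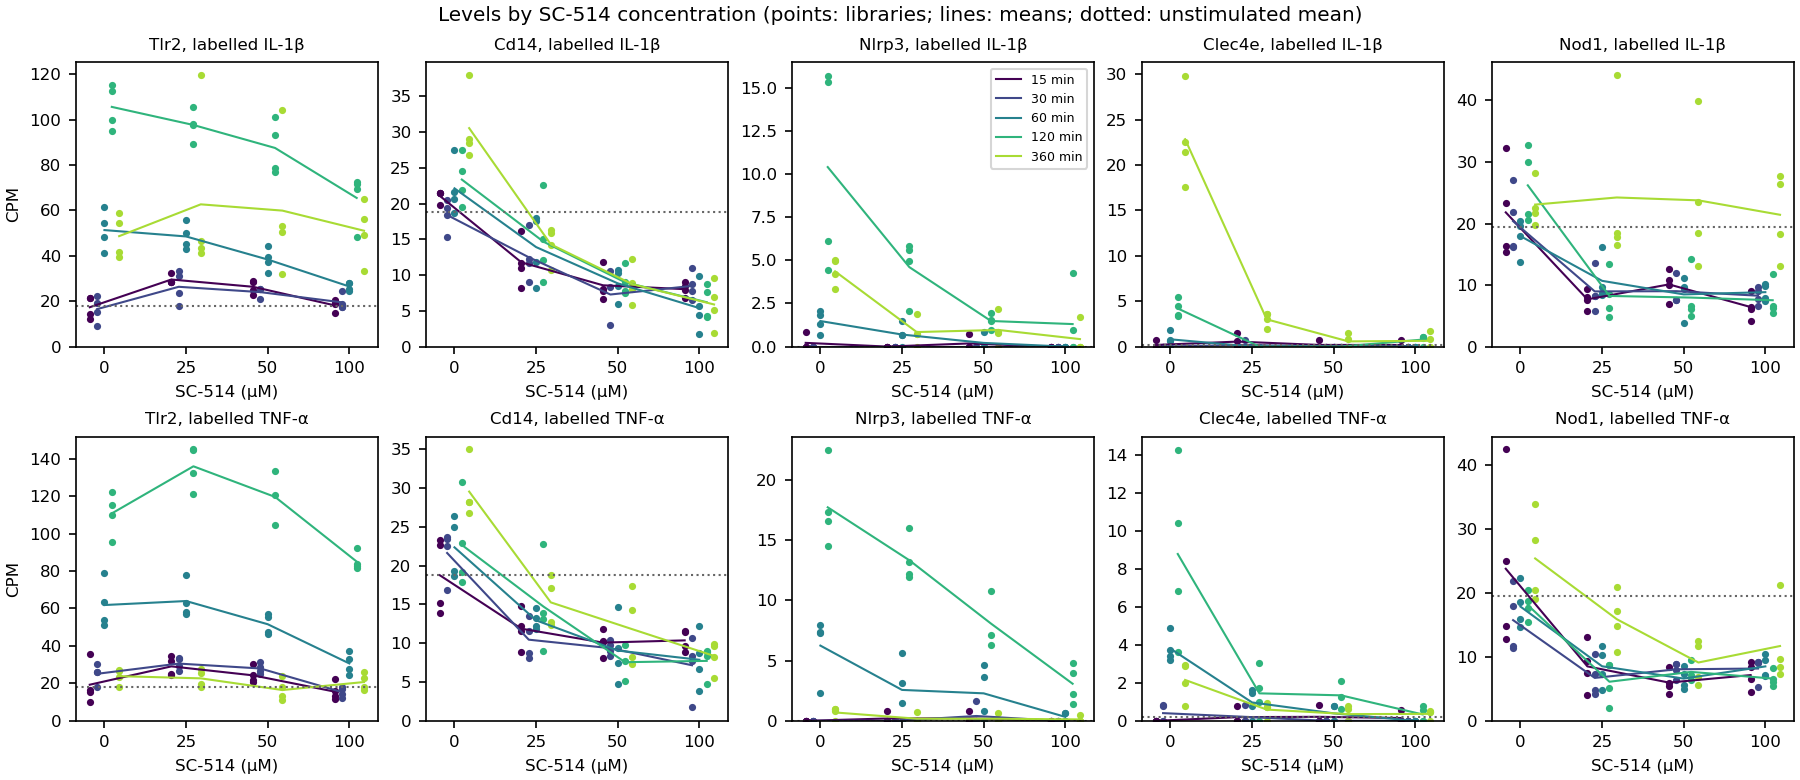
CPM of the 5 genes by SC-514 concentration in µM, with a line for each time, in cells labelled IL-1β (upper row) and TNF-α (lower row). Points are libraries, lines join group means and the dotted line is the unstimulated mean. The Cd14 means, and the Nod1 means other than those of 360 min under IL-1β, lie below the unstimulated mean with inhibitor, and the Tlr2 means of 120 min stay above it at every concentration.

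**Figure D4:**
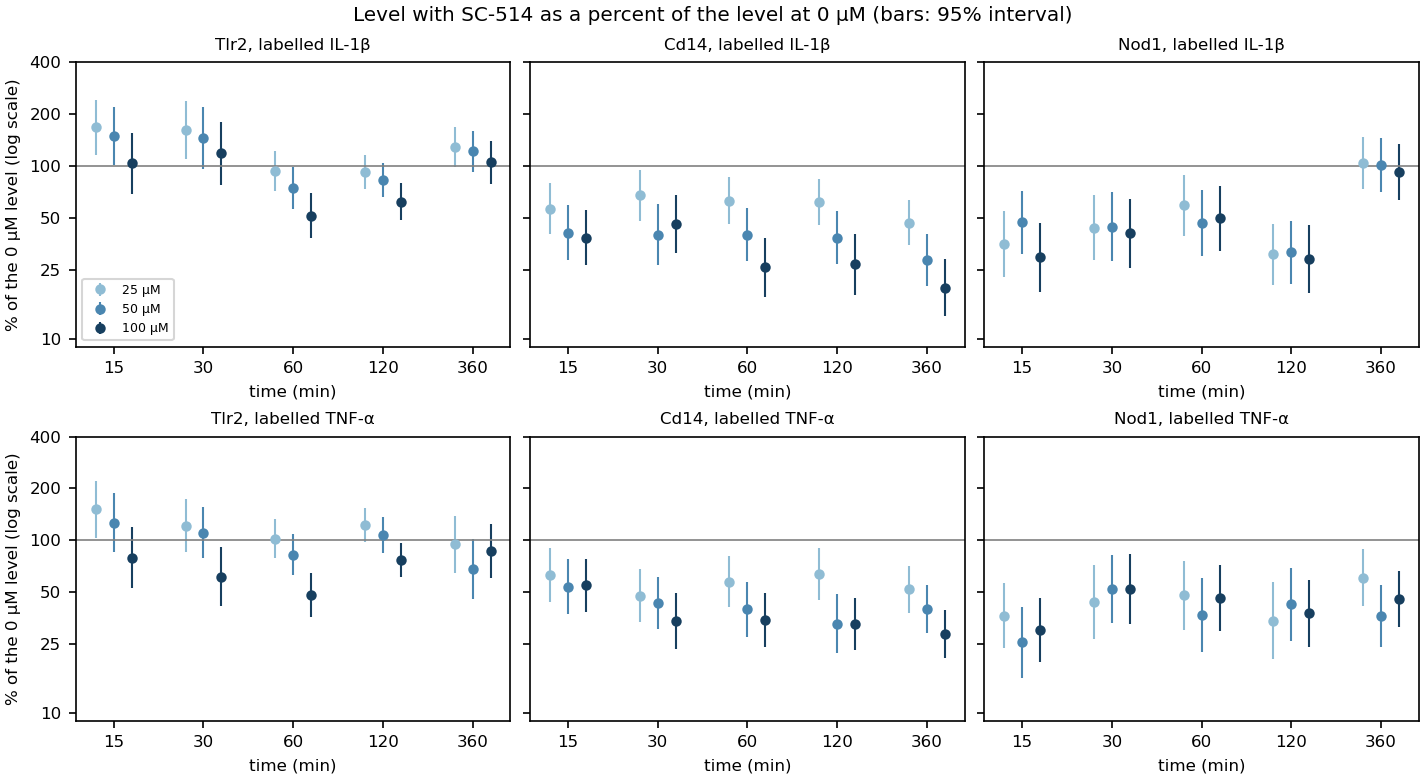
Fitted level of Tlr2, Cd14 and Nod1 with 25, 50 and 100 µM SC-514 as a percent of the 0 µM level at the same time (log axis), with 95% intervals, in cells labelled IL-1β (upper row) and TNF-α (lower row). Nod1 at 15 min lies at 29.6% with 100 µM and 35.4% with 25 µM under IL-1β, and at 92.8% with 100 µM at 360 min.

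Set against unstimulated cells, stimulated cells with 100 µM SC-514 still had more Tlr2 at 120 min and had less Cd14 and Nod1. Under IL-1β 3 of 25 tests were called higher and 9 lower, and under TNF-α 3 were called higher and 10 lower. Of all genes, 10.7%, 10.4%, 10.3%, 11.4% and 15.6% were called higher at 15, 30, 60, 120 and 360 min under IL-1β, and 12.4%, 11.7%, 11.9%, 11.3% and 14.8% lower. Under TNF-α 9.37%, 9.07%, 10.8%, 11.9% and 13.5% were called higher and 11.8%, 11.2%, 12.4%, 12.7% and 15.3% lower. Tlr2 remained higher at 120 min, by 1.85 ± 0.25 on the log2 scale under IL-1β (adjusted p = 4.4e-10) and 2.23 ± 0.22 under TNF-α (adjusted p = 5.3e-16), at 60 min under TNF-α and at 360 min under IL-1β. With the unstimulated group put at 3 counts, Nlrp3 at 120 min was 2.14-fold higher under IL-1β (5 counts, adjusted p = 0.046). Under TNF-α it was 5.32-fold higher (24 counts, adjusted p = 0.0003). Neither fold has an interval, and the IL-1β one rests on too few counts to give a lower limit. No Clec4e change was called, with at most 3 counts in a group. Cd14 was lower at all 5 times under both stimuli, with log2 changes of -1.72 to -1.15 under IL-1β and -1.36 to -0.87 under TNF-α. Nod1 was lower at 15 to 120 min under IL-1β, at -1.62 to -1.13, and at all 5 times under TNF-α, at -1.52 to -0.75. These comparisons share the unstimulated libraries with those of the stimuli alone. The Nlrp3 call under IL-1β was lost whichever library number was left out (adjusted p 0.055 to 0.47), the Tlr2 call at 60 min under TNF-α without number 2 or 3, the Cd14 call at 15 min under TNF-α without number 1 (0.07), the Nod1 call at 30 min under IL-1β without number 1 (0.055), and the Nod1 call at 360 min under TNF-α without number 1, 2 or 4.

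The effect of 100 µM was not shown to differ between the stimuli for any of the 5 genes. None of 25 tests of the difference was called by edgeR, and 2 had an unadjusted p under 0.05, Nod1 at 360 min and Tlr2 at 30 min (0.94 ± 0.42, unadjusted p = 0.027). DESeq2 gave no adjusted p for 20 of the 25 and called none of the other 5, and 2 of the 25 had an unadjusted p under 0.05. Among all genes the share called was 0.149%, 0.0557%, 0.697%, 1.07% and 1.98% at 15, 30, 60, 120 and 360 min. F tests over the times gave adjusted p between 0.51 for Nod1 and 0.99 for Nlrp3, beside 4.68% of all genes called. For Cd14 at 360 min the difference was -0.54 ± 0.39 on the log2 scale.

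Ordered by group mean, Tlr2 was highest under TNF-α at 120 min with 25 µM (136 ± 11.3 CPM), then with 50 µM (119.6 ± 14.4 CPM, 3 libraries) and 0 µM (111 ± 11.1 CPM), followed by IL-1β at 120 min with 0 µM (106 ± 9.88 CPM), and the libraries of each of these neighbours overlap. Its lowest mean was 15.3 ± 2.69 CPM, under TNF-α at 30 min with 100 µM. Cd14 ran from 5.38 ± 3.39 CPM (IL-1β, 60 min, 100 µM) to 30.5 ± 5.02 CPM (IL-1β, 360 min, 0 µM), and this highest group overlapped the TNF-α group of the same time. Nod1 ran from 5.98 ± 1.78 CPM (TNF-α, 15 min, 50 µM) to 26.2 ± 6.14 CPM (IL-1β, 120 min, 0 µM), with overlap between this group and the next, TNF-α at 360 min (25.4 ± 6.93 CPM). Nlrp3 was highest under TNF-α at 120 min with 0 µM (17.7 ± 3.39 CPM), overlapping the 25 µM group (13.3 ± 1.89 CPM). Clec4e was highest under IL-1β at 360 min with 0 µM (22.9 ± 5.13 CPM), where every library lay above the next group, TNF-α at 120 min with 0 µM (8.77 ± 4.57 CPM).

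The genes whose group means followed each sensor most closely were sought among 10420 genes, by Pearson's r of log2(CPM + 1) over the 41 groups. The groups share library sets, times and inhibitor, so r is a description. Tlr2 was followed most closely by Tnfaip2 (r = 0.956), Csf1 (0.953), which encodes the macrophage colony-stimulating factor, Nfkbie (0.94), which encodes an NF-κB inhibitor, and Rnf19b (0.932). Nlrp3 was followed by Tnfaip2 (0.922), Cdc42ep4 (0.916), Ets1 and Tbx3 (0.907 each). Clec4e was followed by Gpr84 (0.906), a receptor for medium-chain fatty acids, Il1f6 (0.881), Mmp3 (0.851), a matrix metalloproteinase, and Serpinb2 (0.841). Cd14 was followed by Kcnn4 (0.923), Serpinb6a (0.922), Stc1 and Tpm4 (0.921 each), and Nod1 by Manf (0.907), Ncs1 (0.906), Ebna1bp2 (0.904) and Cgnl1 (0.902). Among the sensors themselves r was 0.864 for Tlr2 with Nlrp3 and 0.646 for Cd14 with Nod1, and 0.0611 for Tlr2 with Cd14 and -0.0283 for Tlr2 with Nod1.

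Genes that work with these sensors were counted in lists taken from textbook pathways. Of 19 other Toll-like receptors and co-receptors, 16 were in the table and 7 were tested. Only Lbp, which carries lipopolysaccharide to CD14, was called without inhibitor, higher at 360 min under IL-1β (log2 change 1.39, adjusted p = 2.6e-09) and at 120 min under TNF-α (0.61, adjusted p = 0.048). Of all genes, 12.3% and 9.14% were called higher in these comparisons, so a call of Lbp alone among the 7 tested is near these shares. With 100 µM at 360 min under IL-1β, Lbp fell by 1.55 (adjusted p = 2.6e-10), and Tlr4, the lipopolysaccharide receptor, was lower with 100 µM at 30 min under both stimuli (-1.20 under IL-1β and -1.18 under TNF-α). Of all genes, 15.7% were called lower with 100 µM at 360 min under IL-1β. At 30 min the shares were 12.5% under IL-1β and 10.8% under TNF-α. The calls of the list's other members with 100 µM, in either direction, are not counted here. The falls of Lbp and Tlr4 therefore cannot be set against these shares and do not describe the list. The list's median change at 120 min was -0.18 under IL-1β and -0.01 under TNF-α, against -0.01 and -0.02 for all genes.

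Of 16 adaptors and kinases downstream of these receptors, 14 were tested. At 120 min without inhibitor 1 was called higher under IL-1β, Traf6 (log2 change 0.71), the ubiquitin ligase of the pathway, and 3 under TNF-α, and none was lower, beside 8.17% and 9.14% of all genes called higher. With 100 µM at 120 min 2 were higher and none lower under IL-1β (Tollip 0.47, Peli1 0.54), and 2 were higher and 2 lower under TNF-α. Of all genes, 14.3% were then called higher and 16.2% lower under IL-1β, and 11.5% higher and 15% lower under TNF-α, so 2 of 14 higher is near the share over all genes. Of 10 partners of NOD proteins, 9 were tested, and at 120 min 3 were called higher under IL-1β and 4 under TNF-α, beside the same 8.17% and 9.14% of all genes. Ripk2, the kinase that NOD1 signals through, rose by 2.28 on the log2 scale under IL-1β (adjusted p = 5.7e-25) and 2.40 under TNF-α (adjusted p = 1.2e-26) at 120 min, and fell by 1.22 and 0.85 with 100 µM at that time. The calls of the other NOD partners with 100 µM are not counted here, so the fall of Ripk2 does not describe the list. Birc2 and Birc3, ubiquitin ligases that act on RIPK2, rose by 1.56 and 1.28 under IL-1β at 120 min. The list's median change at 120 min was 0.19 under IL-1β and 0.17 under TNF-α, against -0.01 and -0.02 for all genes.

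Of 23 inflammasome genes, all in the table, 10 were tested, and at 120 min 2 were called higher under each stimulus, Gsdmd (0.40 under IL-1β, 0.44 under TNF-α), the pore former cleaved by inflammatory caspases, and Casp4 (0.60 and 0.55), beside 8.17% and 9.14% of all genes. With 100 µM at 360 min Gsdmd fell by 0.66 under both stimuli, where 15.7% of all genes were called lower under IL-1β and 15.4% under TNF-α. The calls of the other inflammasome genes with 100 µM are not counted here, so this fall does not describe the list. The median change at 120 min was 0.13 under IL-1β and 0.03 under TNF-α, against -0.01 and -0.02 for all genes. Of 13 C-type lectin receptors and partners, 4 were tested, and 3 rose at 120 min under both stimuli, Bcl10 (1.06 under IL-1β and 1.19 under TNF-α), Malt1 (1.66 and 2.00) and Prkcd (0.55 and 0.48), the first pair of which form a complex with CARD9. Malt1 fell with 100 µM at 120 min by 1.82 under IL-1β and 1.90 under TNF-α, where 16.2% and 15.0% of all genes were called lower. The calls of the other genes of this list with 100 µM are not counted here. The median change at 120 min was 0.80 under IL-1β and 0.83 under TNF-α, against -0.01 and -0.02 for all genes, of which 8.17% and 9.14% were called higher.

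The list of cytosolic sensors of RNA and DNA and their kinases held 16 symbols, of which 2 are second names of listed genes (Mb21d1 for Cgas and Tmem173 for Sting1). All 14 genes were tested. At 120 min 2 were called higher under each stimulus, among them Ikbke (1.17 under IL-1β and 1.71 under TNF-α), beside 8.17% and 9.14% of all genes. The median change was -0.02 under IL-1β and 0.01 under TNF-α, against -0.01 and -0.02 for all genes. With 100 µM at 15 min 3 were lower under IL-1β, Trim25 (-0.94), Eif2ak2 (-0.84) and Cgas (-0.62), the cytosolic DNA sensor, and none was higher. Under TNF-α at 15 min 3 were lower (Trim25 -0.88, Cgas -0.82, Eif2ak2 -0.78) and 1 higher. Of all genes, 13.5% were called lower and 11.2% higher under IL-1β at 15 min, and 13.2% lower and 8.99% higher under TNF-α. The median changes of that list with 100 µM at 15 min were -0.35 under IL-1β and -0.53 under TNF-α, against 0.00437 and 0.00633 for all genes.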

How the data were processed

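The table held counts per gene for 164 libraries of 3′ tag sequencing, each listed under 4 sample records. Per the submitters' processing notes, reads were aligned with Bowtie2 to the mouse genome (GRCm38, mm10). The deposited counts are whole numbers per Ensembl gene that the authors had not normalized, per the file itself, and the counting settings are not given there. Symbols were matched for 21858 of 22070 gene identifiers. Counts were fitted in edgeR 4.0.16 (R 4.3.3) by quasi-likelihood with robust dispersion, TMM factors and 1 mean per group over all 41 groups, after edgeR's filter on low counts left 10766 genes. All 5 genes passed it, and the fit kept both shallow libraries. The fit was tested on simulated counts for all libraries, with each gene's mean rate over the table and 1 spread for all genes. Changes were put into the 60 min IL-1β group, and 10556 genes were fitted. Of genes changed by 1 on the log2 scale 89.8% were called in the right direction, and 98% of those changed by 2, with 9 false calls. The changed genes were drawn from all that passed the filter. Each gene kept its mean rate over all libraries, so genes near 0 in most groups, such as Nlrp3 and Clec4e, were not imitated. The result does not speak for them. CPM are edgeR's, and group means and the low-count ratios leave out libraries under 100000 counts. Where a group summed to few counts, the ratio of summed counts per effective library size has an exact 95% interval that covers counting error only, and a group at 0 was set to 3 counts. A fold that involves a group at 0 has no interval and takes the counts of the other group as exact. DESeq2 1.42.0, RLE factors, no filter, each stimulus fitted alone, a block for the library number, each library number left out and both shallow libraries left out were tried. Genes were named by rule: all 5 members, the 4 genes of highest r for each, and for each pathway list up to 3 called genes of smallest adjusted p in a comparison. The members, the pathway and marker lists and the tests were chosen with earlier results of these data known.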

Additional observations from a re-analysis of the deposited data

Results flagged for a closer look

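Of 131 combinations of a gene and a group of 4 libraries, 11 had 1 library that lay apart from the other 3. Chance alone gives about 1 in 20. For Tlr2 these were library 2 of IL-1β with 25 µM at 15 min (32.6 CPM, the highest), library 1 of IL-1β with 25 µM at 360 min (119.7 CPM, the highest) and library 3 of IL-1β with 100 µM at 120 min (48.2 CPM, the lowest). For Cd14 they were library 1 of IL-1β with 0 µM at 15 min (19.8 CPM), library 2 of TNF-α with 0 µM at 30 min (16.9 CPM) and library 3 of TNF-α with 100 µM at 120 min (4.72 CPM), each the lowest of its group. For Nlrp3 it was library 3 of TNF-α with 0 µM at 60 min (2.27 CPM, the lowest). For Nod1 they were library 4 of IL-1β with 25 µM at 60 min (16.1 CPM, the highest), library 1 of IL-1β with 25 µM at 360 min (44.2 CPM, the highest), library 2 of TNF-α with 100 µM at 30 min (5.34 CPM, the lowest) and library 3 of TNF-α with 100 µM at 360 min (21.3 CPM, the highest). Library 1 of IL-1β with 25 µM at 360 min thus stood apart for both Tlr2 and Nod1.

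Clec4e moved in opposite directions between 120 and 360 min without inhibitor. Every IL-1β library of 360 min lay above every one of 120 min (log2 change 2.42), and every TNF-α library of 360 min lay below every one of 120 min (log2 change -2.04). The difference between these changes was not tested.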

How the results depend on the processing

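Of 141 tests of a gene that were called, 91 were called under every one of 11 other settings that gave a value, 50 missed the threshold under at least 1, and none changed direction. DESeq2 gave no adjusted p for 7 of the 141. Of the 19 calls for 25 against 0 µM it called 10, did not call 5 and gave no adjusted p for 4, and of the 4 for IL-1β against TNF-α it called 2, did not call 1 and gave none for 1. Leaving out each library number in turn from all groups gave 10 to 17 calls for 25 against 0 µM, 1 to 5 for 100 against 25 µM under IL-1β (6 with all libraries), 3 to 6 under TNF-α (8), and 2 to 3 for IL-1β against TNF-α (4). The causes were not tested. The other counts of calls stayed within 1.5 times of those reported. Nothing in the labels pairs libraries of the same number, whose deviations had a mean correlation of 0.0727. The value for unlike numbers, -0.0242, follows from that one, since deviations were taken from the group mean, and is no separate reference. In 11 of 67 comparisons every pair of the same number had a correlation above 0.1. With the number as a replicate block 0 of the 141 calls were lost, 25 against 0 µM had 20 calls in place of 19, and the gain was Tlr2 at 15 min under IL-1β (adjusted p = 0.046). That change was also called without the filter on low counts (0.0056) and without the libraries numbered 1 (0.018). Tlr2 also gained calls for 100 against 0 µM under TNF-α, at 30 min under 3 settings and at 120 min under 2. Over all genes, the count of calls differed by more than 1.5 times from edgeR's in 24 comparisons with DESeq2, 10 without the filter, 3 with each stimulus fitted alone and 1 with RLE, where DESeq2's counts leave out genes without an adjusted p. At 360 min, for example, DESeq2 called 144 and edgeR 294 genes for 25 against 0 µM under TNF-α, and at 15 min 141 genes were called without the filter and 18 with it for IL-1β against unstimulated cells. RLE over all libraries moved the share of higher calls by over 10 points in 36 of 72 comparisons and, without the 2 shallow libraries, in 0. For 100 against 25 µM, higher calls made up 44.5% to 57.9% under IL-1β and 41% to 65.3% under TNF-α with RLE, against 30.8% to 42.2% and 26.7% to 35.8% with TMM. With log2(CPM + 5), 2 or 3 of the 4 genes most like each sensor stayed the same. No permutation test for untested genes was run, since all 5 were tested, and F tests were not run in DESeq2. Low counts limit Nlrp3 and Clec4e most: no fold is given where both groups hold 3 counts or fewer.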
